A study of Homo sapiens with 12 samples.

Results

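The 4 genes of the oligoadenylate synthetase (OAS) family, OAS1, OAS2, OAS3 and OASL, were followed in HEK293, a human embryonic kidney cell line. They were taken by gene name from a deposited table of 19836 genes, and all 4 were among the 14049 genes that were tested. All cells were transduced on day 1, either with the plasmid that the labels call A197-270 or with the Flag vector, and were harvested on day 4. The 12 libraries form 4 groups of 3, which are A197-270 with interferon gamma (IFN-gamma) added on day 2 (libraries 10, 11 and 12), A197-270 alone (4, 5 and 6), vector with IFN-gamma (7, 8 and 9) and vector alone (1, 2 and 3). The labels do not say what A197-270 encodes or that the libraries of a group came from separate cultures, so the spread between libraries may be technical.

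OAS proteins are interferon-induced sensors of double-stranded RNA. When bound to such RNA, the enzymes OAS1, OAS2 and OAS3 join ATP into short oligoadenylates (2-5A), which switch on a latent endoribonuclease that cuts viral and cellular RNA. OASL lacks this enzymatic activity, carries ubiquitin-like domains and is known to enhance signalling by the RNA sensor RIG-I and to restrain the DNA sensor cGAS. Type I and type III interferons induce the family through a complex that includes STAT2 and IRF9 and binds interferon-stimulated response elements, whereas IFN-gamma acts mainly through gamma-activated sites and the induced factor IRF1.

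OAS1, OAS3 and OAS2 lie side by side on the plus strand of chromosome 12 in hg38. OAS1 (ENSG00000089127.12) spans chr12:112906777-112933222, OAS3 (ENSG00000111331.12) chr12:112938352-112973249 and OAS2 (ENSG00000111335.12) chr12:112978395-113011723, with gaps of 5129 and 5145 bases between neighbours. OASL (ENSG00000135114.12) lies on the minus strand at chr12:121019111-121039242. Counted over all annotated exons, the genes hold 4947 bases (OAS1), 6264 (OAS2), 8251 (OAS3) and 3517 (OASL). OAS2 and OASL transcripts shared none of their distinct 50-base words with transcripts of other genes, and OAS1 and OAS3 shared 0.215% and 0.615% with other genes. No member shared a 50-base word with another member. The antisense gene AC004551.1 overlaps 92 exonic bases of OAS1, and the sources used here do not say whether reads were counted by strand.

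The promoters of OAS1 and OAS3, which matched the RefSeq promoter table (GRCh38.p14), are printed because both genes were lowest in the same group and highest in the same group. The annotated gene starts given above, 112906777 for OAS1 and 112938352 for OAS3, lie inside the printed windows, so part of each window falls within the annotated gene. Both OAS1 matches described below, and the OAS3 match nearest the RefSeq start, lie after those annotated starts and so within the annotated genes. Each stretch holds the 250 bases before the RefSeq start on the plus strand, at chr12:112906712-112906961 for OAS1 and chr12:112938224-112938473 for OAS3, and capitals mark the matches described after them.
OAS1: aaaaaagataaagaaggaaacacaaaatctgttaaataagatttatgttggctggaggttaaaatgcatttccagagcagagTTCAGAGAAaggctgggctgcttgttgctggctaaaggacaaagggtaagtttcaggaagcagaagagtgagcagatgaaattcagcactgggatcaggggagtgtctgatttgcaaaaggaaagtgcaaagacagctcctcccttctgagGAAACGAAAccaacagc
OAS3: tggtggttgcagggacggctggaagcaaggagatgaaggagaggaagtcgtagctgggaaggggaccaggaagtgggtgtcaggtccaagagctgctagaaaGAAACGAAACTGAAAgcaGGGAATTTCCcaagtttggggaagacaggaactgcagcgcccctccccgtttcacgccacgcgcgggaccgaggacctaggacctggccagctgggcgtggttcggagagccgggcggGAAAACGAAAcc
Both strands were searched for GAAANNGAAA, the core of the interferon-stimulated response element, for TTCNNNGAA, the core of the gamma-activated site, and for the NF-kappaB motif GGGNNTTTCC. OAS3 held GAAANNGAAA at -143 to -134 and at -12 to -3, counted back from the start, and GGGNNTTTCC at -130 to -121. OAS1 held TTCNNNGAA at -168 to -160. The closer repeat GAAANGAAA, which was added to the search after the sequences were seen, lay at -17 to -9 in OAS1 and at -148 to -140 in OAS3, where it overlapped the first GAAANNGAAA. Of 35116 RefSeq windows of the same length, 3.02% held GAAANNGAAA, 2.69% GAAANGAAA, 6.57% TTCNNNGAA and 1.73% GGGNNTTTCC. These matches describe letters in a window and not bound sites.

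The libraries held 31417431 to 70746868 reads, and values are read counts divided by 1 factor per library, called normalized counts below. LIN28B, an RNA-binding protein gene typical of embryonic lines, stood at 7858 to 9208 normalized counts in every library, and the leukocyte gene PTPRC had reads in 1 of 12. Mitochondrially encoded genes took 0.478% to 0.712% of reads in A197-270 cells with IFN-gamma, 0.546% to 0.802% in A197-270 cells, 0.405% to 0.475% in vector cells with IFN-gamma and 0.355% to 0.480% in vector cells. In bulk RNA, fewer cells that express a gene and less RNA per cell cannot be told apart.

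The levels of all 4 genes were lowest in A197-270 cells without IFN-gamma. OAS1 had 11.3, 4.67 and 0 normalized counts in A197-270 libraries 4, 5 and 6, against 1488, 1336 and 1276 in vector libraries 1, 2 and 3. These A197-270 values rested on 20 reads in all, with a 95% exact Poisson interval of 12.2 to 30.9 that covers counting error only. OAS2 had 14.1, 10.5 and 5.25 in the A197-270 libraries, against 1568, 1393 and 1159 in the vector libraries. OAS3 was at 157, 101 and 82.0 in A197-270 cells, against 5258, 4698 and 4272 in vector cells. For the 3 enzymes library 4 was the highest and library 6 the lowest of the A197-270 libraries. OASL did not share that order and hardly varied, with 80.7, 81.7 and 85.1 in A197-270 cells, against 2933, 2694 and 2360.2 in vector cells. In each of the 4 genes the highest A197-270 library lay below the lowest vector library, as in 20.1% of all tested genes.

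**Figure D1:**
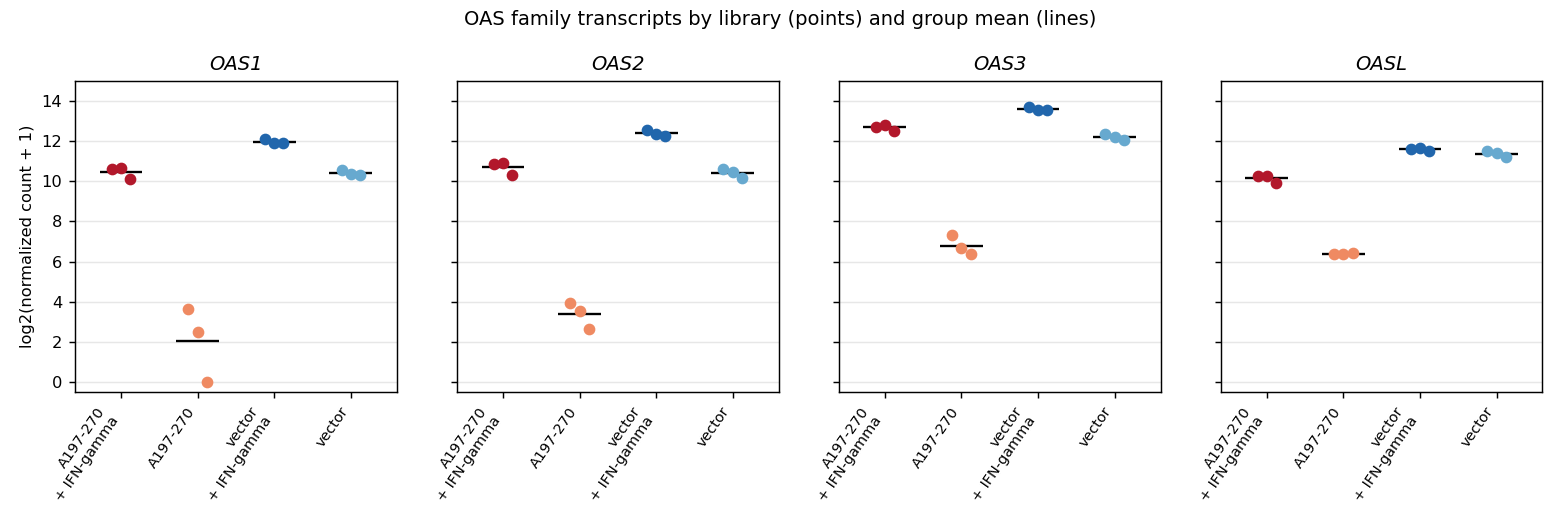
Expression of OAS1, OAS2, OAS3 and OASL as log2(normalized count + 1) on the y axis in each of 12 libraries (points) of the 4 groups on the x axis, with lines at the group means of those log2 values (n = 3). A197-270 cells without IFN-gamma lie lowest in every panel, and their OAS1 points spread from 0 to 11.3 normalized counts before the log.

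With 3 libraries a group, the differences were tested by limma on log2(normalized count + 1) with all 12 libraries in one model, and p-values were adjusted by the Benjamini-Hochberg method over the 14049 genes with a threshold of 0.05. All 4 members fell with A197-270, where 12.6% of all tested genes were called lower and 12.5% higher (1766 and 1756 genes, or 2741 and 1161 with libraries scaled to equal totals). OAS1 averaged 5.31 ± 5.66 normalized counts in A197-270 cells and 1367 ± 109 in vector cells (SD, n = 3 each), a mean 257-fold lower, with an estimate of -8.38 ± 0.583 SE on the log2 scale (limma adjusted p = 1.22e-07). That estimate was -7.36 without library 6, which had 0 reads, -9.16 without library 4 and -6.56 with a pseudocount of 10, which gave -6.13 for OAS2. OAS2 averaged 9.94 ± 4.44 in A197-270 cells and 1373 ± 205 in vector cells, 138-fold lower (log2 -7.05 ± 0.244 SE, limma adjusted p = 2.29e-11). OAS3, the longest of the enzymes, averaged 113 ± 38.8 in A197-270 cells and 4743 ± 494 in vector cells, 41.9-fold lower (log2 -5.42 ± 0.165 SE, limma adjusted p = 4.47e-12). OASL averaged 82.5 ± 2.32 in A197-270 cells and 2662 ± 288 in vector cells, 32.3-fold lower (log2 -4.99 ± 0.0931 SE, limma adjusted p = 2.55e-14). Mitochondrially encoded genes moved with the construct as well, with 10 of 13 called higher and 0 lower, and their part in these differences was not tested.

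IFN-gamma in A197-270 cells was followed by a rise of all 4 genes, where 4.19% of tested genes were called higher. OAS1 had 1561, 1615 and 1095 normalized counts in the A197-270 libraries 10, 11 and 12 that received IFN-gamma, and its mean of 1424 ± 286 compared with 5.31 ± 5.66 in A197-270 cells without it (SD, n = 3 each; 268-fold, limma log2 estimate 8.42 ± 0.583 SE, adjusted p = 9.86e-08). This estimate was 7.40 without library 6, 9.20 without library 4 and 6.60 with a pseudocount of 10, which gave 6.42 for OAS2. OAS2 had 1881, 1908 and 1292 in those libraries, a mean of 1694 ± 348 against 9.94 ± 4.44 (170.3-fold, log2 7.34 ± 0.244 SE, limma adjusted p = 9.12e-12). OAS3 reached 6726, 7206 and 5898, a mean of 6609.9 ± 661 against 113 ± 38.8 (58.4-fold, log2 5.90 ± 0.165 SE, limma adjusted p = 1.22e-12). The smallest rise was that of OASL, at 1216, 1233 and 970.2 with IFN-gamma, a mean of 1139.9 ± 147 against 82.5 ± 2.32 (13.8-fold, log2 3.76 ± 0.0931 SE, limma adjusted p = 2.55e-13). No library with IFN-gamma overlapped one without it in any of the 4 genes, as for 12.1% of all tested genes. In all 4 genes library 12 was the lowest of the 3, and it also had the largest mitochondrial share of the 3, 0.712% against 0.572% and 0.478%. Library 3 likewise had the largest mitochondrial share of the vector libraries, 0.480%, and the lowest value of all 4 genes. In the remaining groups the order differed. Library 7 had the largest share of the vector libraries with IFN-gamma, 0.475%, and the highest OAS1, OAS2 and OAS3. Library 5 had the largest share of the A197-270 libraries, 0.802%, and the middle value of all 4 genes. The part of this share in the result was not tested.

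In vector cells, where the family was already expressed, IFN-gamma was followed by smaller differences. OAS1 had 4376, 3869 and 3843 normalized counts in vector libraries 7, 8 and 9 with IFN-gamma, OAS2 had 6032, 5333 and 4846, and OAS3 had 13252, 11959 and 11997. None of these overlapped the vector libraries without IFN-gamma, and 16.3% of all tested genes were higher without overlap in this comparison. OASL had 3165, 3205 and 2903 with IFN-gamma, of which the lowest lay below the highest vector library without it. OAS2 rose 3.93-fold, to 5403 ± 596 with IFN-gamma against 1373 ± 205 without (SD, n = 3 each; limma log2 estimate 1.98 ± 0.244 SE, adjusted p = 1.04e-04). OAS3 rose 2.61-fold, to 12403 ± 736 against 4743 ± 494 (log2 1.39 ± 0.165 SE, limma adjusted p = 6.93e-05). These were the 2 of 4 members called, against a background of 7.32% of genes called higher.

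OAS1 did not pass in vector cells, although its mean of 4029 ± 300.1 with IFN-gamma was 2.95-fold that of 1367 ± 109 without (log2 1.56 ± 0.583 SE, limma adjusted p = 0.0821). Its SE is shared by all comparisons and includes the A197-270 libraries, whose values ran from 0 to 11.3. With only the vector libraries in the fit the limma adjusted p was 4.16e-07, and edgeR's quasi-likelihood test on the recovered reads gave 5.64e-06. OASL averaged 3091 ± 164 with IFN-gamma and 2662 ± 288 without, a ratio of 1.16 that did not pass (log2 0.22, 95% interval 0.02 to 0.42, limma adjusted p = 0.122).

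**Figure D2:**
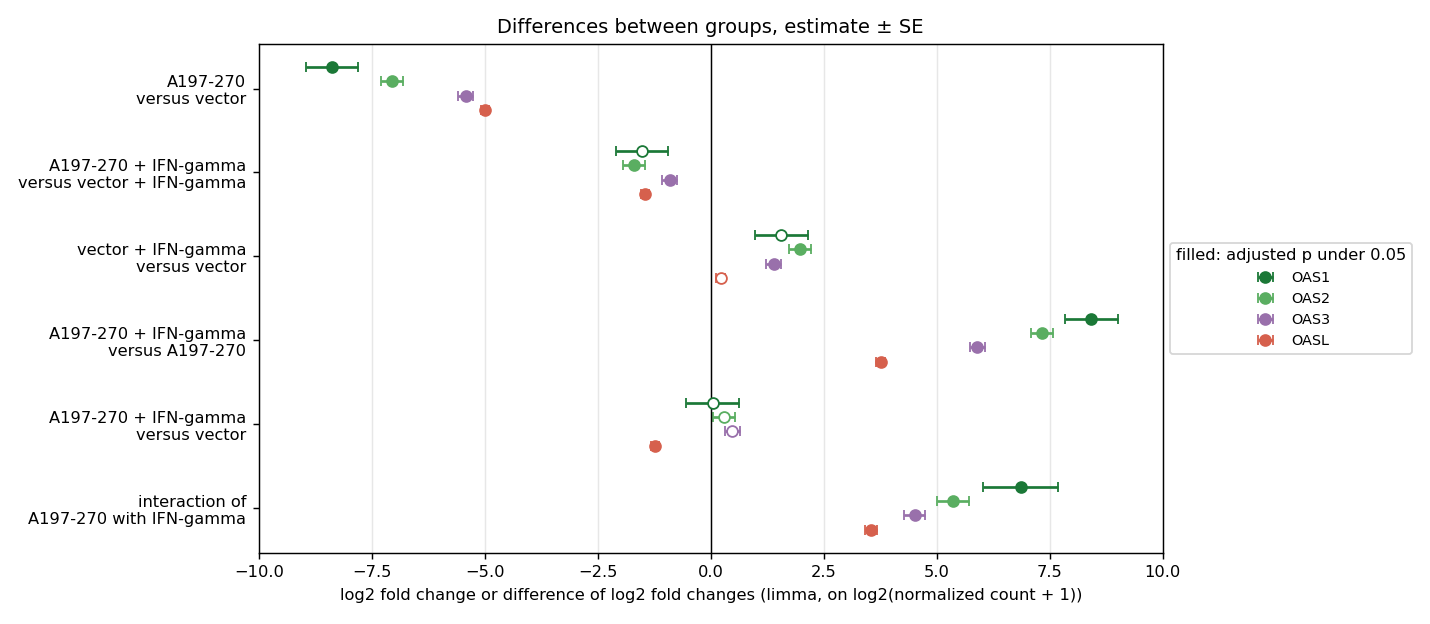
Estimates from limma for the 4 genes (colours) in 5 comparisons of groups and the interaction (y axis), on the log2(normalized count + 1) scale with bars of 1 SE from 12 libraries. Filled points passed an adjusted p of 0.05. The falls with A197-270 ran from -8.38 for OAS1 to -4.99 for OASL, and the interaction from 6.86 to 3.54 in the same gene order.

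The response to IFN-gamma differed between the arms in every member. The interaction, which is the log2 response in A197-270 cells less the one in vector cells, was called higher for 4 of 4 members against 0.819% of tested genes. OAS1 had 6.86 ± 0.825 SE (limma adjusted p = 1.60e-04), and the estimate was 5.84 without library 6, 7.64 without library 4 and 5.04 with a pseudocount of 10, which gave 4.45 for OAS2. OAS2 had 5.36 ± 0.345 SE (limma adjusted p = 1.04e-07), OAS3 had 4.51 ± 0.233 SE (limma adjusted p = 8.32e-09) and OASL had 3.54 ± 0.132 SE (limma adjusted p = 1.89e-10). These values use the same 12 libraries as the comparisons before them and are not independent of those.

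In the presence of IFN-gamma, levels of the 4 genes lay below those of vector cells in A197-270 cells, by less than without it (the interaction above). OAS2 averaged 1694 ± 348 normalized counts in A197-270 cells with IFN-gamma and 5403 ± 596 in vector cells with IFN-gamma, 3.19-fold lower (SD, n = 3 each; limma log2 estimate -1.69 ± 0.244 SE, adjusted p = 1.54e-04). OAS3 was 1.88-fold lower (log2 -0.91 ± 0.165 SE, limma adjusted p = 8.07e-04) and OASL 2.71-fold lower (log2 -1.45 ± 0.0931 SE, limma adjusted p = 1.88e-07). These 3 of 4 members were called where 16.2% of genes were called lower (2272 lower and 2616 higher, or 4170 and 1512 with equal totals). The OAS1 mean was 2.83-fold lower, at 1424 ± 286 against 4029 ± 300.1, and missed the threshold (log2 -1.52 ± 0.583 SE, limma adjusted p = 0.0571). With only the IFN-gamma libraries in the fit the limma adjusted p was 4.63e-05, and no library of A197-270 cells with IFN-gamma overlapped one of vector cells with IFN-gamma in any of the 4 genes. Genes lower without overlap made up 22.9% of those tested here.

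A197-270 cells with IFN-gamma were also set against vector cells without it, which sets the levels with both treatments beside those with neither. Only OASL was called, at 1139.9 ± 147 normalized counts in A197-270 cells with IFN-gamma and 2662 ± 288 in vector cells (SD, n = 3 each; limma log2 estimate -1.23 ± 0.0931 SE, adjusted p = 6.31e-07), with 5.98% of genes called lower (840 lower and 1031 higher, or 1797 and 678 with equal totals). OAS1 was at 1424 ± 286 in A197-270 cells with IFN-gamma and 1367 ± 109 in vector cells, a log2 difference of 0.04 with a 95% interval of -1.21 to 1.29 (limma adjusted p = 0.973). The interval for OAS2 was -0.23 to 0.81 around 0.29 (limma adjusted p = 0.471). OAS3 did not overlap between these groups, 5898 to 7206 against 4272 to 5258, and missed the threshold (log2 0.48 ± 0.165 SE, limma adjusted p = 0.0706), but passed with only these groups in the fit (limma adjusted p = 0.0121), in edgeR (0.00965) and in DESeq2 (0.0428). In this comparison 15.7% of genes were higher without overlap and 7.34% were called higher. It shares libraries with the comparisons before it.

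The make-up of the family pool was followed per length, as each gene's share of the 4-gene sum of normalized counts per kilobase of exon. OASL held 19.3% ± 0.319 of the pool in A197-270 cells with IFN-gamma, 59.9% ± 9.95 in A197-270 cells, 21.7% ± 1.08 in vector cells with IFN-gamma and 41.4% ± 0.420 in vector cells (SD, n = 3 each). OAS3 held 47.8% ± 2.34, 33.8% ± 6.40, 37.0% ± 0.847 and 31.5% ± 0.293 in the same order of groups. By this measure OASL was the most abundant member in both groups without IFN-gamma and OAS3 in both groups with it. The lengths counted all annotated exons, other lengths were not tried, and the order of members can depend on that choice. The A197-270 shares without IFN-gamma spread widely. OAS1 held 2.46% ± 2.45 in A197-270 cells and 15.2% ± 0.569 in vector cells. No test was made of these shares.

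**Figure D3:**
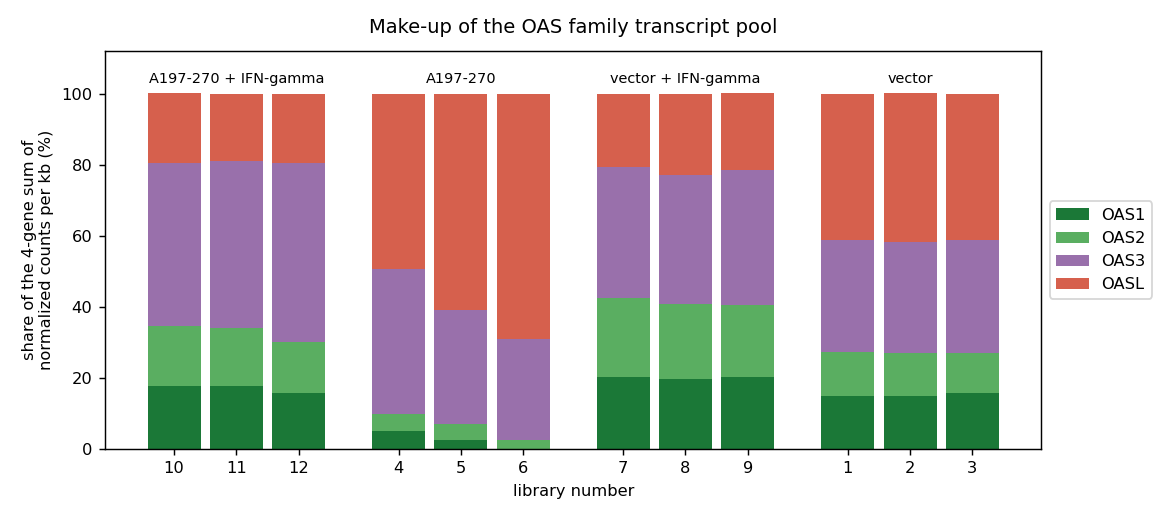
Share of each gene in the 4-gene sum of normalized counts per kilobase of exon (y axis, %), stacked for each of the 12 libraries (x axis) under their group names. OASL takes 49.4% to 69.2% in A197-270 libraries and 41.1% to 41.9% in vector libraries, against 18.9% to 22.8% in the libraries with IFN-gamma.

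Transcripts of the ligands that induce the family were measured in the same libraries. The 4 interferon genes with enough reads to be tested, IFNB1 and the lambda interferon genes IFNL1, IFNL2 and IFNL3, were all called lower in A197-270 cells than in vector cells. Of all tested genes, 12.6% were called lower in that comparison. IFNB1 averaged 6.24 ± 0.371 normalized counts in A197-270 cells and 538 ± 37.1 in vector cells (SD, n = 3 each; limma log2 estimate -6.22, adjusted p = 5.96e-11). With IFN-gamma it stood at 53.4 ± 25.9 in A197-270 cells and 898 ± 59.7 in vector cells (log2 -4.14, limma adjusted p = 6.99e-08). In A197-270 cells IFNL1 was at 0 reads, which a floor of 3 reads over the group puts at least 156-fold lower than in vector cells. Against vector cells without IFN-gamma, A197-270 cells with IFN-gamma thus had less IFNB1 (log2 -3.40, limma adjusted p = 1.72e-07), less IFNL1 (-3.82, limma adjusted p = 2.11e-06) and less OASL, while OAS1, OAS2 and OAS3 were not called. IFNL2 and IFNL3 are near-identical, so their split is uncertain, and IFNG had 0 reads in all 12 libraries.

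Of 18 genes of interferon receptors, kinases, transcription factors and inhibitors, 8 fell and 0 rose with A197-270 without IFN-gamma (median log2 -0.20), where 12.6% of all tested genes were called lower and 12.5% higher. IRF9, the DNA-binding partner of STAT2, fell by 2.47 on the log2 scale (limma adjusted p = 5.44e-09) and IRF7, an inducer of type I interferons, by 3.18 (limma adjusted p = 8.32e-06). STAT2 was higher with IFN-gamma in both arms, by 2.51 in A197-270 cells (limma adjusted p = 1.61e-15) and by 1.47 in vector cells (limma adjusted p = 2.79e-12). IRF1 was higher by 4.09 in A197-270 cells (limma adjusted p = 9.41e-16) and by 3.55 in vector cells (limma adjusted p = 2.10e-14). With A197-270 alone IRF1 was lower, at log2 -0.67 (limma adjusted p = 2.39e-06), and its interaction was 0.54 (limma adjusted p = 0.00278). STAT2 was lower as well, at log2 -1.16 (limma adjusted p = 1.87e-11), and its interaction was 1.04 (limma adjusted p = 1.33e-08). Between A197-270 cells and vector cells that both received IFN-gamma, 8 of the 18 genes were called lower, where 16.2% of all genes were. Another 3 were called higher (0 with equal totals), where more than 16.2% of all genes were. IRF9 was at log2 -0.38 (limma adjusted p = 0.0378) and STAT2 at -0.13 (limma adjusted p = 0.0230), and IRF1 at -0.13 was not called (limma adjusted p = 0.120).

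Other sensors of foreign RNA or DNA and their adaptors gave 6 falls and 1 rise among 8 tested with A197-270 (median log2 -1.95), against 12.6% of all tested genes called lower and 12.5% higher. DDX58, which encodes RIG-I, fell by 4.13 (limma adjusted p = 7.19e-13), IFIH1, which encodes the RNA helicase MDA5, by 3.76 (limma adjusted p = 9.21e-14) and their regulator DHX58 by 2.40 (limma adjusted p = 1.73e-06). With IFN-gamma in A197-270 cells, 6 of the 8 rose and 0 fell (4.19% of all genes rose), and the interaction was called higher for 6 of the 8 (0.819% of all genes). In vector cells 4 of 8 rose with IFN-gamma and 0 fell, where 7.32% of all genes rose, among them TLR3, the endosomal sensor of double-stranded RNA (log2 1.71, limma adjusted p = 1.00e-04).

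**Figure D4:**
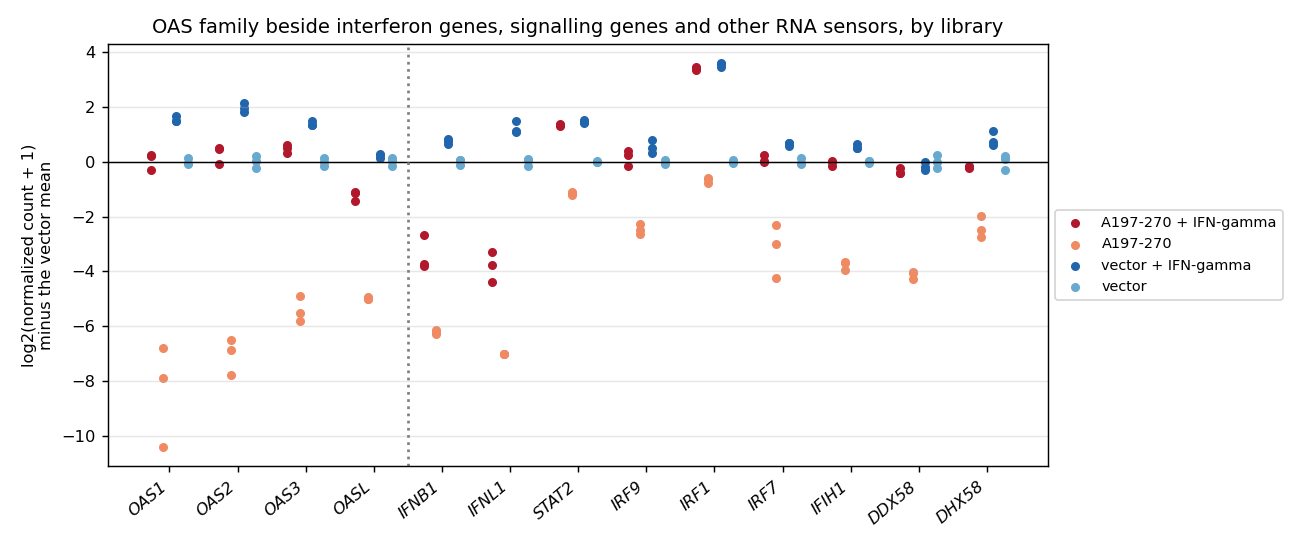
Values of the 4 OAS genes (left of the dotted line) and of interferon, signalling and sensor genes on the x axis, as log2(normalized count + 1) minus the mean of the vector libraries on the y axis, with 1 point per library and 3 libraries a group. In A197-270 cells with IFN-gamma, IRF9 stood at log2 0.17 against vector cells, which was not called, whereas IFNB1 (-3.40) and OASL (-1.23) were called lower.

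Genes that limit 2-5A signalling gave small differences. ABCE1, an ATPase known to inhibit 2-5A signalling, had log2 differences of 0.10 with A197-270 (limma adjusted p = 0.0755) and 0.13 with A197-270 under IFN-gamma (limma adjusted p = 0.0144). PDE12, a phosphodiesterase that degrades 2-5A, was at -0.02 (limma adjusted p = 0.729) and -0.12 (limma adjusted p = 0.0344) in those comparisons. AKAP7, a protein with a 2-5A-degrading domain, was at 0.27 (limma adjusted p = 0.0526) and 0.35 (limma adjusted p = 0.0103).

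Across the 12 libraries the 3 enzymes followed each other most closely, with Pearson's r of log2(normalized count + 1) of 0.990 to 0.998 between them and 0.958 to 0.967 with OASL. These correlations describe 4 groups that stand apart and carry no p. The genes most like OAS1 were RSAD2, which makes an antiviral nucleotide (0.995), IFI44 (0.995) and C19orf66 (0.989). RSAD2 (0.997), C19orf66 (0.996) and LGALS3BP (0.997) were closest to OAS2, and LGALS3BP (0.998), RSAD2 (0.997) and EPSTI1 (0.996) to OAS3. None of these was among the genes closest to OASL, which were ISG15, a ubiquitin-like modifier (0.994), IFI6 (0.993) and IFIT2, an RNA-binding antiviral protein (0.992). ISG15 averaged 4476 ± 137 normalized counts in vector cells with IFN-gamma and 4232 ± 376 in vector cells, and IFI6 20591 ± 946 and 24579.7 ± 613 (SD, n = 3 each). IFIT2 had a higher mean with IFN-gamma, 12022 ± 1739 against 8986 ± 1401 in the same groups.

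The genes around the family were read as a check of the region. With A197-270, 12.5% of all tested genes were called higher and 12.6% lower. Of 7 tested neighbours of the OAS1-OAS3-OAS2 cluster, 3 were called higher and 0 lower in that comparison (median log2 -0.12). Of 5 tested neighbours of OASL, 0 were called higher and 1 lower (median 0.01). The one called lower was P2RX7, an ATP-gated channel gene, at -0.85 (limma adjusted p = 0.0389), and under quantile normalization 0 of the 5 were called.

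Other genes whose proteins share the nucleotidyltransferase fold of the family gave small differences. With A197-270, 3 of 4 tested relatives were called higher, where 12.5% of all tested genes were. Among them ZFR and STRBP, which encode proteins that bind double-stranded RNA, were higher by 0.19 and 0.18 on the log2 scale (limma adjusted p = 0.00124 and 0.00196). ILF2 was at -0.00 (limma adjusted p = 0.985). Where both arms received IFN-gamma, all 4 were called higher with A197-270, ILF2 at 0.15 (limma adjusted p = 0.00742). More than 16.2% of all genes were called higher there. With IFN-gamma in vector cells these genes were called lower, ILF2 at -0.17 (limma adjusted p = 0.00692), STRBP at -0.17 (0.00467) and ZFR at -0.14 (0.0121), where 9.79% of genes were called lower. MB21D1, which encodes the DNA sensor cGAS, was too low to be tested, with 5.39 ± 3.69 normalized counts in vector cells (SD, n = 3).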

How the data were processed

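Poly(A)-selected RNA of 12 HEK293 libraries was measured. The deposited unit is a signal, namely the normalized count of each gene. Per the submitters' processing notes, hg38, DESeq2 1.22.1, HISAT2 2.1.0 and StringTie 1.3.3b were used, in roles that are not given. In every column 100% of values were whole multiples of the lowest positive one (tolerance 0.001 of a read), which gave back whole reads. Genes with a mean of at least 10 were tested by limma 3.58.1 (R 4.3.3) with a mean-variance trend on log2(value + 1), two-sided, a scale on which the estimates of low genes depend on the pseudocount and on libraries at 0. Reads on other genes made up 0.0179%. The fit was tested on simulated data with changes smaller than the falls of the members with A197-270, so that test does not cover them. Alternatives were pseudocounts of 0.5 and 10, no filter, a mean of at least 50, equal totals, quantile normalization, only the compared groups, edgeR 4.0.16 and DESeq2 1.42.0 on recovered reads, and each library left out. On those reads edgeR called 1796 genes higher and 1737 lower for A197-270 against vector. Annotation was GENCODE 29. No protein sequences were compared. Besides the members, the text names for each the 3 most correlated genes whose mean reached 50, genes of 2-5A turnover, interferon ligands and OAS-fold relatives, and up to 3 called genes of other lists with the largest changes. Members and lists were chosen with earlier results of these data known. Some listed genes are not reported here.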

Additional observations from a re-analysis of the deposited data

Results flagged for a closer look

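The 4 genes are listed here because their response to IFN-gamma differed between the arms by a direct test of that difference. The log2 response of A197-270 cells exceeded that of vector cells by 6.86 for OAS1, 5.36 for OAS2, 4.51 for OAS3 and 3.54 for OASL, all past the limma threshold. Under the 8 alternatives run for the interaction the values ran from 5.04 to 7.25 for OAS1, 4.45 to 5.44 for OAS2, 4.38 to 4.52 for OAS3 and 3.41 to 3.57 for OASL, and none lost its call.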

How the results depend on the processing

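Of 380 member values under alternatives, 363 kept their direction and their side of the threshold, 13 gained a call and 4 changed sign. The gained calls were OAS1 between the IFN-gamma groups (-1.51 with a pseudocount of 10, -1.61 with equal totals, -1.52 with quantile normalization, -1.52 with only the compared groups, -1.51 in edgeR, -1.50 in DESeq2), OAS1 with IFN-gamma in vector cells (1.55 with a pseudocount of 10, 1.56 with only the compared groups, 1.57 in edgeR, 1.56 in DESeq2) and OAS3 in A197-270 cells with IFN-gamma against vector cells (0.48 in each of the last 3). The sign changes were all in OAS1 in that last comparison, -0.01 with equal totals and -0.06 to 0.22 over the left-out libraries. No paired analysis was possible because no replicate number is shared between groups. Over all genes, equal totals gave 1161 higher and 2741 lower for A197-270 against vector (1756 and 1766 as tested), 1512 and 4170 with IFN-gamma (2616 and 2272), 678 and 1797 for A197-270 with IFN-gamma against vector (1031 and 840), 830 lower for IFN-gamma in vector cells (1376) and 23 lower for the interaction (11). DESeq2 gave 221 higher and 62 lower interactions (115 and 11), and only the compared groups 508 lower for A197-270 with IFN-gamma against vector. Leaving out a library gave 592 to 1157 higher and 801 to 1388 lower for IFN-gamma in vector cells, 389 to 534 and 186 to 356 in A197-270 cells (588 and 422), 665 to 909 and 464 to 758 for A197-270 with IFN-gamma against vector, and 6 to 78 lower interactions (78 without library 3). The lowest counts came without library 9 (592), 2 (801, 665 and 464) and 4 (389 and 186). The causes were not tested. At 20 reads, depth limits the OAS1 level in A197-270 cells, whose difference from vector cells ran from -9.16 to -7.36 with a library left out. Under equal totals, chosen for the lists after seeing the data, 3 cluster neighbours were lower with A197-270 under IFN-gamma, against 0 as tested.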
